A study of Glycine max with 18 samples.

Results

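Soybean embryonic axes germinated for 24 hours in the presence of paclobutrazol (PBZ) were compared with axes germinated in water for the same time. Time is given in hours after imbibition (HAI). Gibberellins (GA) are the hormones that promote germination: they bind GID1 receptors, the complex leads to the degradation of DELLA proteins, which repress growth, and genes for cell expansion and wall loosening are then expressed. PBZ blocks GA biosynthesis at ent-kaurene oxidase, an early enzyme of the pathway. The embryonic axis holds the radicle, hypocotyl and plumule, and its elongation is what completes germination.

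All seeds were of the cultivar BRS 284. PBZ seeds were germinated on cotton soaked in water with 200 µM PBZ and control seeds on cotton soaked in water alone, both at 28 °C with 12 hours of light. The study used 3 plates of 20 seeds per sample and took the axes without the cotyledons. Whether each library pooled the plates is not stated. The values are averages over all cell types of the axis, and fewer cells of a type cannot be told apart from less RNA per cell. The 3 PBZ and 3 control libraries of 24 HAI are 6 of the 18 libraries of the study, which also sampled both treatments at 12 and 36 HAI. Nothing in the labels says how the replicates of a group were separated, so the p-values measure the spread between these samples.

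The authors deposited expression as RPKM, read numbers scaled to the length of the transcript and to the size of the library, from uniquely mapped reads, so near-identical copies of a gene keep only the reads that tell them apart. Genes with a mean of at least 1 RPKM in PBZ or control were tested, which left 31148 of 56044 genes. The test was limma on log2(RPKM + 0.1), and a gene was called raised or lowered at a Benjamini-Hochberg adjusted p of 0.05 or less together with a log2 change, PBZ minus control, of at least 1 in size. The added 0.1 makes the change of a low gene look smaller than it is. All adjusted p-values below are from limma.

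The PBZ libraries of 24 HAI stood apart from the controls in 1 respect before any nuclear gene was considered. That respect was the share of reads on copies of organelle genes. The study described such copies among genes it had called higher with PBZ at 24 HAI, so their direction there is not independent evidence. Nuclear-annotated copies of chloroplast and mitochondrial genes took 4.74%, 4.51% and 7.50% of the summed RPKM in the PBZ libraries, against 0.272%, 0.263% and 0.323% in the control libraries (p = 0.1 by a two-sided exact permutation test, which cannot go lower with 3 against 3 samples). At the other times this share differed between libraries of the same group: it was 0.749% in control replicate 2 of 12 HAI and 3.90% to 11.5% in the other 5 libraries of that time, and 5.11% in control replicate 3 of 36 HAI and 0.204% to 0.440% in the other 5. Depth relative to control replicate 1, judged by the steps in which low RPKM values occur, was 1.12, 1.77 and 1.04 in PBZ and 1, 1.25 and 1.72 in control. Markers of stored seed transcripts (oleosin, LEA and seed maturation protein genes) summed to 170.2, 74.7 and 59.7 RPKM in PBZ and 93.2, 90.0 and 237.9 RPKM in control, ranges that overlap. Of these 9 markers 8 were tested, all 8 picked by the study as changed at 1 of the times, and 0 were called by limma, with 0 at an unadjusted p below 0.05. No axis-defining markers were checked.

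Organelle-like genes were therefore counted apart. A gene was taken as organelle-like if it was among the study's organelle copies, or if its level followed the organelle share in the 12 and 36 HAI controls, that is, if it was at least 1 log2 unit higher in control replicate 3 of 36 HAI than in each of the other controls of that time and at least 1 log2 unit lower in control replicate 2 of 12 HAI than in each of the others. The libraries of this second rule lie outside the 24 HAI comparison. The study's copies were described among genes it had called higher with PBZ at 24 HAI, so their common direction is not independent evidence. Of 172 such genes tested, all 172 had a log2 change above 0, 122 were raised and 0 were lowered. The other 30976 genes are called nuclear here and are the subject of what follows.

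PBZ lowered 63 nuclear genes and raised 101. Over all genes tested the counts were 63 lowered, or 0.202%, and 223 raised, or 0.716%, and within nuclear genes the lowered made up 0.203% and the raised 0.326%. The lowered genes had a median log2 change of -1.29, with a median level of 1.98 RPKM in PBZ and 6.44 RPKM in control, and 42 of them changed by less than 1.5 log2 units. The raised genes had a median log2 change of 1.22, with a median level of 17.1 RPKM in PBZ and 6.62 RPKM in control. At an unadjusted p below 0.05 there were 8100 nuclear genes. With median-ratio size factors in place of the deposited scaling the nuclear counts were 48 lowered and 145 raised, which moved the share of raised calls to 75.1%, against 61.6%. The counts depended on single libraries: the lowered genes numbered 6, 10 and 9 without control replicate 1, 2 or 3 and 32, 21 and 73 without PBZ replicate 1, 2 or 3, and the raised numbered 38, 51 and 57 and then 53, 35 and 125. Of the 63 lowered genes 16 passed in none of these 6 fits and 4 passed in all. All 63 lowered genes kept a negative change in every one of these fits that tested them, and all 101 raised genes a positive one.

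**Figure D1:**
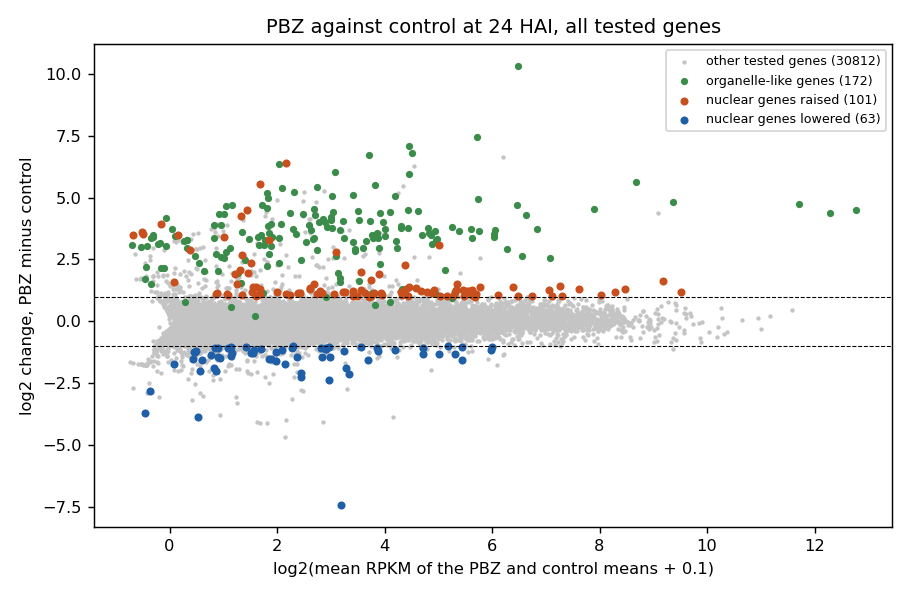
Log2 change at 24 HAI (PBZ minus control) against the mean level, one point per tested gene, with dashed lines at changes of -1 and 1. The 172 organelle-like genes all lie above 0, while 63 nuclear genes are lowered and 101 raised.

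The largest falls, the lowered genes with the highest control means and the largest rises were named by a rule that required non-overlapping groups. All 63 lowered and all 101 raised genes met that requirement. The largest fall belonged to Glyma.08G171200, a gene without a name in the study's tables. It had 0.000698, 0.000320 and 0.0160 RPKM in the PBZ libraries, against 21, 16.1 and 16.7 RPKM in the control libraries (log2 change -7.41, SE 0.21, adjusted p 0.0001). It was near 0 in single libraries elsewhere too: it measured 0.00202, 30.8 and 34.9 RPKM with PBZ and 23.4, 15.3 and 0.000825 RPKM in controls at 12 HAI, and 17.6, 17.4 and 31.0 RPKM with PBZ and 6.68, 2.82 and 0.0000860 RPKM in controls at 36 HAI. Its on and off values therefore did not follow the treatment at the other times. Glyma.10G167900, also unnamed, had 0, 0 and 0.439 RPKM in the PBZ libraries, against 2.75, 3.30 and 1.60 RPKM in the control libraries (log2 change -3.86, SE 0.72, adjusted p 0.0424), and its PBZ values lay below all control values.

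Glyma.03G158700 (IAA14), an Aux/IAA protein that represses auxin response genes, had 2.23, 2.70 and 2.27 RPKM in the PBZ libraries, against 17.4, 9.54 and 12.0 RPKM in the control libraries (log2 change -2.35, SE 0.22, adjusted p 0.00629). All 3 PBZ values lay far below all 3 control values. It was among the 4 lowered genes that passed both limits whichever of the 6 libraries was left out, together with Glyma.08G171200, Glyma.03G033900 (cyclin P3;1) and Glyma.08G083500 (RECQ helicase L1). The cyclin had 3.42, 4.70 and 4.46 RPKM in the PBZ libraries, against 12.5, 10.4 and 11.2 RPKM in the control libraries (log2 change -1.43, SE 0.14, adjusted p 0.00715). RECQ helicases unwind DNA, and Glyma.08G083500 had 2.44, 2.70 and 2.49 RPKM in the PBZ libraries, against 5.73, 5.44 and 6.06 RPKM in the control libraries (log2 change -1.14, SE 0.11, adjusted p 0.00629) and the smallest standard error of the 4.

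The other large falls were in genes of several kinds. Glyma.01G046300 (UGT73B5), a glucosyltransferase of small molecules, had 1.33, 2.41 and 1.68 RPKM in the PBZ libraries, against 11.3, 8.82 and 6.47 RPKM in the control libraries (log2 change -2.24, SE 0.27, adjusted p 0.014). Glyma.10G217100, a homolog of Arabidopsis UPBEAT1, which controls peroxidase genes and root cell elongation, had 1.08, 2.47 and 2.63 RPKM in the PBZ libraries, against 9.54, 8.41 and 7.81 RPKM in the control libraries (log2 change -2.1, SE 0.31, adjusted p 0.0275). Neither gene's groups overlapped, as the rule that named them required. Glyma.20G090700 (MYB61), a transcription factor linked in Arabidopsis to lignin and to stomatal opening, had 0.356, 0.622 and 0.480 RPKM in the PBZ libraries, against 3.05, 1.59 and 2.25 RPKM in the control libraries (log2 change -2.01, SE 0.32, adjusted p 0.0294). Glyma.09G232000, an inhibitor of invertase or pectin methylesterase, had 0.405, 0.612 and 0.922 RPKM in the PBZ libraries, against 2.23, 2.71 and 3.43 RPKM in the control libraries (log2 change -1.99, SE 0.31, adjusted p 0.0289).

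A HXXXD-type acyltransferase, Glyma.10G159600, had 2.63, 5.15 and 4.54 RPKM in the PBZ libraries, against 16, 15.7 and 13.4 RPKM in the control libraries (log2 change -1.90, SE 0.24, adjusted p 0.0165). A peroxidase, Glyma.17G061400, had 0.757, 0.584 and 0.623 RPKM in the PBZ libraries, against 3.28, 2.43 and 2.41 RPKM in the control libraries (log2 change -1.89, SE 0.22, adjusted p 0.012). Peroxidases of this class use hydrogen peroxide to cross-link wall polymers. Glyma.19G041800 (TBL19), of the family that acetylates wall polysaccharides, had 1.32, 2.37 and 2.24 RPKM in the PBZ libraries, against 8.90, 5.94 and 5.19 RPKM in the control libraries (log2 change -1.71, SE 0.28, adjusted p 0.0316). Glyma.11G195400, unnamed, had 3.98, 2.50 and 4.06 RPKM in the PBZ libraries, against 25.8, 13.7 and 9.98 RPKM in the control libraries (log2 change -2.12, SE 0.35, adjusted p 0.0333), and Glyma.08G321700, a protein of unknown function, had 1.26, 2.41 and 1.83 RPKM in the PBZ libraries, against 7.81, 3.68 and 6.23 RPKM in the control libraries (log2 change -1.62, SE 0.32, adjusted p 0.0485). The groups of these 5 genes did not overlap, as the rule required. This was also the case for 22.8% of all tested genes in the lower direction.

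**Figure D2:**
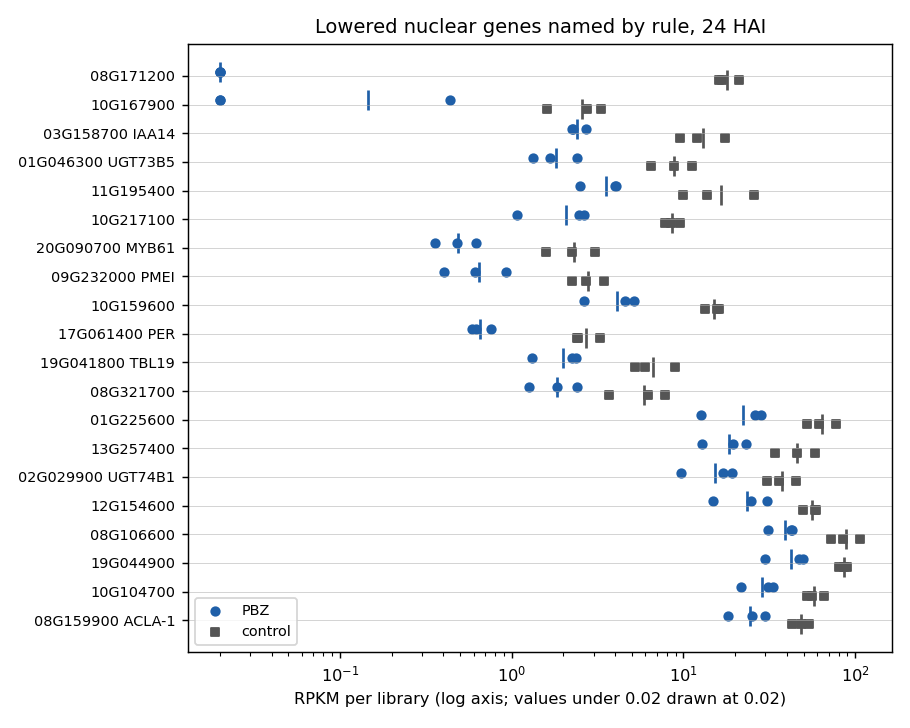
RPKM in each of the 3 PBZ libraries (circles) and 3 control libraries (squares) of 24 HAI for the 12 largest falls and the 8 lowered genes with the highest control means, on a log axis, with vertical bars at the group means. In every gene all 3 PBZ values lie left of all 3 control values, as the rule that chose these genes required.

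Of the 63 lowered genes 26 had control means under 5 RPKM and 11 had control means of at least 20 RPKM. Among the highest was Glyma.08G106600, unnamed, with 42.9, 42.4 and 31.1 RPKM in the PBZ libraries, against 72.6, 84.4 and 107 RPKM in the control libraries (log2 change -1.18, SE 0.18, adjusted p 0.0275). Glyma.08G159900 (ACLA-1), a subunit of ATP-citrate lyase, which makes cytosolic acetyl-CoA for waxes and flavonoids, had 18.2, 29.8 and 25.0 RPKM in the PBZ libraries, against 48.5, 53.6 and 42.8 RPKM in the control libraries (log2 change -1.01, SE 0.18, adjusted p 0.0382). Glyma.02G029900 (UGT74B1), named for the Arabidopsis enzyme of glucosinolate synthesis, had 9.65, 19.1 and 17.1 RPKM in the PBZ libraries, against 30.7, 45.2 and 36.1 RPKM in the control libraries (log2 change -1.33, SE 0.26, adjusted p 0.0478). The glycosyltransferase Glyma.10G104700 had 21.8, 33.1 and 31.1 RPKM in the PBZ libraries, against 65.4, 55.7 and 52.0 RPKM in the control libraries (log2 change -1.02, SE 0.17, adjusted p 0.0325). The groups of these 4 genes did not overlap, as the rule required. The remaining 4, Glyma.01G225600, Glyma.13G257400, Glyma.12G154600 and Glyma.19G044900, had no name and log2 changes of -1.58, -1.33, -1.31 and -1.05.

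PBZ replicate 1 was the lowest of the 3 PBZ libraries in 54 of the 63 lowered genes (85.7%), compared with 39.0% of all nuclear genes tested, and control replicate 1 was the highest control in 41 of them. In Glyma.01G225600, for example, it had 12.7, 28.1 and 26.2 RPKM in PBZ replicates 1 to 3, against 52.4, 61.8 and 77.5 RPKM in controls. Without PBZ replicate 1 all of the lowered genes kept a negative change and 22 of the 63 passed both limits again, among 32 nuclear genes lowered in that fit. The lowered and just not lowered genes were not far apart: Glyma.08G321700 and Glyma.05G108900 (ACS8) were the last to pass, with adjusted p of 0.0485 and 0.0488, and the next genes, Glyma.20G213500 and Glyma.11G017400, had log2 changes of -1.79 and -1.27 with adjusted p of 0.0507 and 0.0509. In all, 357 nuclear genes had a log2 change of -1 or less, of which 63 passed the adjusted p and 294 did not.

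Next, the genes of hormone pathways were read as lists. The lists came from the study's tables. All tested members of the auxin, cytokinin, abscisic acid, ethylene, jasmonate and brassinosteroid lists, and of the metabolic, cell wall, transcription factor, ribosomal protein and spliceosome lists below, had been picked by the study as changed in these libraries at 1 of the 3 times, so their common direction is not independent evidence. The lists of GA synthesis, GA deactivation, GID1 and DELLA genes hold nearly only genes that were not picked in this way.

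Among the GA genes 1 was past both limits at 24 HAI. Of 8 early synthesis genes tested 1 was lowered, Glyma.15G135200 (KAO2), an ent-kaurenoic acid oxidase, which acts just after the enzyme that PBZ blocks. It had 5.47, 8.89 and 8.96 RPKM in the PBZ libraries, against 13.4, 17.5 and 16.4 RPKM in the control libraries (log2 change -1.04, SE 0.21, adjusted p 0.0474). This call was lost whichever of the 6 libraries was left out, with log2 changes from -1.16 to -0.81 and adjusted p from 0.0478 to 0.142, and it held in 3 of 18 alternatives in all. The gene for the blocked enzyme with the most RNA, the kaurene oxidase Glyma.13G371400 (KO1), had 17.9, 20.8 and 17.8 RPKM in the PBZ libraries, against 20.7, 22.7 and 21.3 RPKM in the control libraries (log2 change -0.20, SE 0.09, adjusted p 0.198). The median log2 change of the early genes was -0.23, and that of all nuclear genes was -0.08.

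None of the late GA genes passed both limits. The 2 GA 3-oxidase genes, which make the active hormone, had log2 changes of 0.19 and 0.22, and the 2 tested of 3 GA 20-oxidase genes had 0.11 and 0.28. The most highly expressed, Glyma.13G361700 (GA3OX1), had 63.3, 64.9 and 59.7 RPKM in the PBZ libraries, against 55.5, 58.6 and 50.5 RPKM in the control libraries (adjusted p 0.164), and although all 3 PBZ values were above the controls, the log2 difference was only 0.19 (SE 0.08). Of 9 GA 2-oxidase genes, which deactivate GA, 6 were tested, 3 with a change below 0 and 3 above. The lowest, Glyma.11G104800 (GA2OX8), had 2.27, 3.45 and 3.20 RPKM in the PBZ libraries, against 5.43, 4.83 and 6.35 RPKM in the control libraries, with a log2 change of -0.89 (adjusted p 0.052).

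All 5 GID1 receptor genes were tested and none passed, with log2 changes from -0.32 to 0.21 and an unadjusted p below 0.05 in 1 gene of each direction. Of 11 DELLA genes 10 were tested and none passed both limits, with changes from -1.06 to 0.49 and a median of -0.22, and 4 had an unadjusted p below 0.05, all in the lower direction. The most abundant of them, Glyma.11G216500 (RGL2), had 35.5, 45.2 and 43.8 RPKM in the PBZ libraries, against 54.8, 56.5 and 57.4 RPKM in the control libraries, a log2 change of -0.45 (adjusted p 0.0584). A second RGL2 gene, Glyma.18G040000, had 10.4, 12.9 and 12.2 RPKM in the PBZ libraries, against 18.2, 16 and 16.5 RPKM in the control libraries, and passed the adjusted p of 0.0495 with a change of -0.51 only. In these 2 RGL2 genes all PBZ values lay under all control values, and in the third, Glyma.15G141400, the groups overlapped (2.65, 2.11 and 2.03 RPKM in the PBZ libraries, against 2.82, 2.33 and 2.54 RPKM in the control libraries) with a change of -0.18. The 2 NPF3 genes, whose Arabidopsis relative carries GA into cells and which the study had picked, had changes of 0.46 and 0.88, neither past the limits (adjusted p 0.0949 and 0.0514).

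Auxin and cytokinin response genes were among the groups with lower RNA in PBZ axes. Of 8 Aux/IAA genes 7 were tested, all 7 had changes below 0 and non-overlapping groups, and 3 were lowered, with a median of -1.44. Besides Glyma.03G158700, these were Glyma.15G012800 (IAA19), with 2.86, 4.11 and 4.39 RPKM in the PBZ libraries, against 10.4, 10.8 and 9.58 RPKM in the control libraries (log2 change -1.44, SE 0.17, adjusted p 0.0123), and Glyma.19G161100, a second IAA14 gene, with 4.74, 6.07 and 6.01 RPKM in the PBZ libraries, against 17, 10.2 and 12.5 RPKM in the control libraries (log2 change -1.20, SE 0.19, adjusted p 0.0314). Among 5 other auxin genes tested of 9 listed, 1 was lowered, the SAUR-like gene Glyma.04G025500 (log2 change -1.13, SE 0.21, adjusted p 0.0419), of a family of small auxin-responsive proteins that promote cell expansion. Of 7 type-A response regulators, early targets and inhibitors of cytokinin signalling, 6 were tested, all 6 were below 0 with a median of -1.29, and 2 were lowered. These were the RR3 genes Glyma.08G292400, with 1.48, 2.29 and 1.62 RPKM in the PBZ libraries, against 5.38, 5.47 and 4.86 RPKM in the control libraries (log2 change -1.51, SE 0.18, adjusted p 0.0131), and Glyma.18G130900, with 3.90, 4.82 and 4.57 RPKM in the PBZ libraries, against 12.1, 8.54 and 7.76 RPKM in the control libraries (log2 change -1.06, SE 0.18, adjusted p 0.0344). Leaving out 1 library at a time, Glyma.08G292400 passed in 3 of 6 fits and Glyma.18G130900 in 0. Over all tested genes 61.5% had a change below 0, 22.8% had non-overlapping groups in the lower direction and 0.202% were lowered.

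Genes of abscisic acid (ABA), the hormone that opposes GA in seeds, went both ways. Of 6 tested, 3 were lowered and 1 was raised, with 0.203% and 0.326% of nuclear genes. The protein phosphatase 2C genes Glyma.09G066500 and Glyma.15G172500 (both HAB1), which repress ABA signalling, had 1.70, 3.29 and 3.28 RPKM in the PBZ libraries, against 8.44, 6.48 and 7.16 RPKM in the control libraries (log2 change -1.44, SE 0.26, adjusted p 0.0393) and 1.40, 1.70 and 2.14 RPKM in the PBZ libraries, against 4.10, 3.97 and 3.94 RPKM in the control libraries (log2 change -1.17, SE 0.17, adjusted p 0.0258). The bZIP factor gene Glyma.02G131700 (ABF1), an activator of ABA-responsive genes, was also lowered (log2 change -1.19, SE 0.23, adjusted p 0.0464). The ABA importer gene Glyma.19G169400 (ABCG40) was raised, with 6.19, 5.92 and 6.67 RPKM in the PBZ libraries, against 2.63, 2.97 and 3.35 RPKM in the control libraries (log2 change 1.05, SE 0.12, adjusted p 0.0129). The remaining 2 of the 6, the synthesis gene NCED3 and the receptor gene PYL5, had changes of -1.15 and 0.98 and did not pass. The study's protein phosphatase 2C genes also included Glyma.20G238100 and Glyma.13G148800, with changes of -0.96 and 1.26, neither past the limits. Of 3 listed genes for ACC synthase, the enzyme that commits to ethylene, 2 were tested. Glyma.05G108900 (ACS8) was lowered, with 0.303, 0.374 and 0.489 RPKM in the PBZ libraries, against 2.04, 1.03 and 1.53 RPKM in the control libraries (log2 change -1.71, SE 0.34, adjusted p 0.0488). It passed in 0 of the 6 fits that left out 1 library. The other tested gene, Glyma.17G158100 (also ACS8), had a change of -1.35 and did not pass (adjusted p 0.0613). Both tested jasmonate repressor genes (JAZ) had changes below 0, -1.24 and -1.20, and neither passed, although both had an unadjusted p below 0.05.

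Brassinosteroid synthesis held 4 of the 5 raised genes of the hormone lists. All 8 genes had changes above 0 and non-overlapping groups, with a median of 1.05. Over all tested genes 11.4% had non-overlapping groups in the higher direction, and 0.326% of nuclear genes were raised. Glyma.13G052900, Glyma.18G272300 and Glyma.19G033900 encode BR6OX2, the oxidase of the last steps to brassinolide. Glyma.13G052900 had 4.13, 3.48 and 2.71 RPKM in the PBZ libraries, against 1.17, 1.02 and 1.21 RPKM in the control libraries (log2 change 1.5, SE 0.19, adjusted p 0.0176). Glyma.18G272300 had 9.89, 8.88 and 10.5 RPKM in the PBZ libraries, against 4.25, 5.35 and 3.50 RPKM in the control libraries (log2 change 1.16, SE 0.16, adjusted p 0.0219), and Glyma.19G033900 had 20.6, 15.6 and 15.0 RPKM in the PBZ libraries, against 8.03, 7.38 and 7.51 RPKM in the control libraries (log2 change 1.14, SE 0.13, adjusted p 0.0118). The fourth was Glyma.11G067700 (DWF4), the rate-limiting hydroxylase of the pathway, with 7.20, 11.1 and 9.05 RPKM in the PBZ libraries, against 3.58, 4.68 and 4.15 RPKM in the control libraries (log2 change 1.11, SE 0.18, adjusted p 0.0298). The most abundant of the list, Glyma.14G059900 (DWF3), had 35.8, 31.5 and 25.6 RPKM in the PBZ libraries, against 19.9, 16.5 and 11.2 RPKM in the control libraries and missed the adjusted p (0.0582). Of the 8 genes, 1 was highest in control replicate 3 of 36 HAI and lowest in control replicate 2 of 12 HAI, the order of the organelle share.

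**Figure D3:**
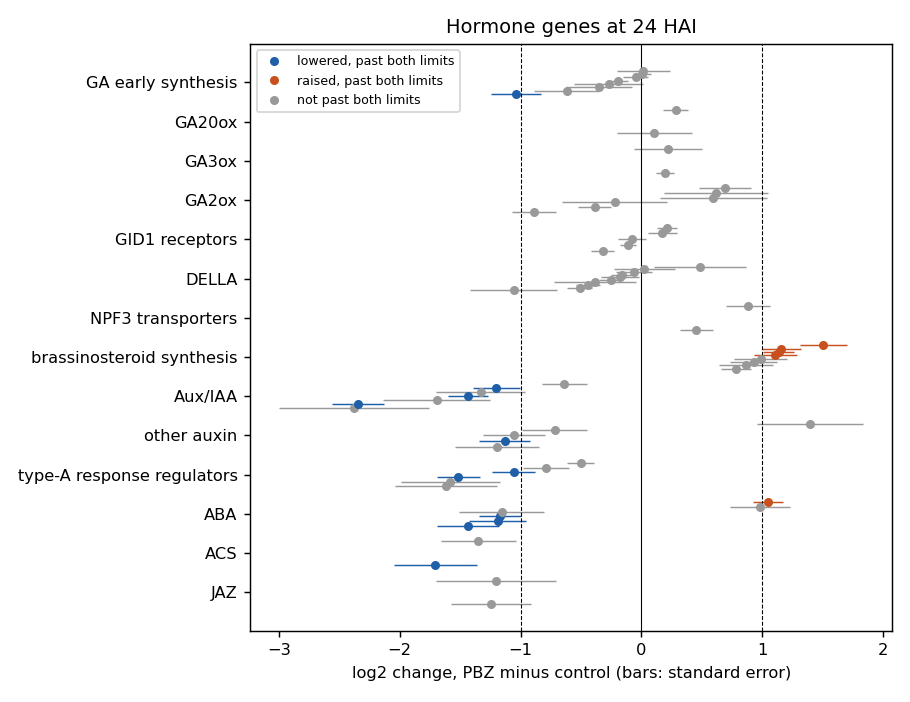
Log2 change at 24 HAI (PBZ minus control) with its standard error for every tested gene of the hormone lists, with dashed lines at -1 and 1. Raised genes are 4 of brassinosteroid synthesis and 1 of ABA, and the lowered ones are 3 Aux/IAA, 1 other auxin, 2 response regulator, 3 ABA, 1 ACS and 1 early GA synthesis genes.

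Cell wall genes were mostly lower in PBZ axes, but few passed the test. Of 44 listed, 31 were tested, 25 had changes below 0, 3 were lowered and 1 was raised, with a median of -1.17. Over all tested genes 61.5% had a change below 0, and 0.203% of nuclear genes were lowered and 0.326% raised. The lowered were the inhibitor gene Glyma.09G232000 and the peroxidase Glyma.17G061400 described above and Glyma.12G150900 (EXPA12), an expansin, a protein that loosens walls, with 1.46, 2.1 and 1.20 RPKM in the PBZ libraries, against 3.74, 4.18 and 3.84 RPKM in the control libraries (log2 change -1.29, SE 0.21, adjusted p 0.0314). The raised member was Glyma.12G030800, a glycine-rich protein 2B, a cold shock domain RNA-binding protein in Arabidopsis, with 211, 189 and 154 RPKM in the PBZ libraries, against 82.7, 97.0 and 93.2 RPKM in the control libraries (log2 change 1.01, SE 0.12, adjusted p 0.0159). Outside the list, Glyma.13G291700 (TBL39), of the same family as TBL19, was lowered too (log2 change -1.07, SE 0.18, adjusted p 0.0329). Of 7 phenylpropanoid genes all 7 had changes below 0 (median -1.43), and the same peroxidase was the 1 lowered. Glyma.15G271000 (BGLU17), a beta-glucosidase, had 13.3, 38.8 and 49.7 RPKM in the PBZ libraries, against 83.4, 119.6 and 102 RPKM in the control libraries, a log2 change of -1.76 that missed the adjusted p (0.0755). The 4 lipoxygenase genes, whose enzymes oxidise fatty acids, had changes from -3.06 to -1.30 and none passed in limma, although all 4 had an unadjusted p below 0.05. In the most abundant, Glyma.13G347800 (LOX1), the values were 16.2, 59.6 and 58.4 RPKM in the PBZ libraries, against 84.8, 136 and 85.3 RPKM in the control libraries, with PBZ replicate 1 far below the other PBZ libraries.

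Glycosyltransferases of small molecules included 4 lowered and 1 raised gene among 11 tested, with 0.203% lowered and 0.326% raised among nuclear genes. Besides UGT73B5 and UGT74B1, the lowered were Glyma.03G032500, with 4.85, 7.43 and 7.35 RPKM in the PBZ libraries, against 20.8, 17.1 and 19.4 RPKM in the control libraries (log2 change -1.55, SE 0.17, adjusted p 0.0115), and Glyma.08G277200, with 7.52, 9.97 and 8.50 RPKM in the PBZ libraries, against 19.7, 26.1 and 15.8 RPKM in the control libraries (log2 change -1.21, SE 0.19, adjusted p 0.0294). The raised one was Glyma.03G186900 (UGT73C2), with 2.12, 2.58 and 2.61 RPKM in the PBZ libraries, against 0.945, 1.04 and 1.14 RPKM in the control libraries (log2 change 1.15, SE 0.18, adjusted p 0.0289). Its family members also conjugate brassinosteroids and cytokinins in Arabidopsis.

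Among 45 listed transcription factor genes 30 were tested, 7 were lowered and 2 raised, with 0.203% and 0.326% of nuclear genes. Of 10 MYB genes tested 4 were lowered: the MYB61 genes Glyma.20G090700 and Glyma.10G142200, Glyma.19G055800 (MYB40) and Glyma.12G032200 (MYB32). Glyma.10G142200 had 1.77, 2.34 and 2.68 RPKM in the PBZ libraries, against 6.92, 5.05 and 4.45 RPKM in the control libraries (log2 change -1.23, SE 0.21, adjusted p 0.036), Glyma.19G055800 had 0.846, 0.706 and 1 RPKM in the PBZ libraries, against 2.93, 1.92 and 2.19 RPKM in the control libraries (log2 change -1.35, SE 0.23, adjusted p 0.0355), and Glyma.12G032200 had 1.05, 1.44 and 1.36 RPKM in the PBZ libraries, against 3.33, 2.31 and 2.73 RPKM in the control libraries (log2 change -1.06, SE 0.20, adjusted p 0.0452). MYB32 is known in Arabidopsis as a repressor of phenylpropanoid genes. Glyma.08G298700 (KDR), an atypical bHLH protein, fell as well (log2 change -1.27, SE 0.17, adjusted p 0.0199), and so did Glyma.19G097700 (NAC083), a repressor of vessel formation in Arabidopsis (log2 change -1.54, SE 0.30, adjusted p 0.0469). The ABF1 gene is the seventh. Leaving out 1 library at a time, MYB32 and NAC083 passed in 0 of 6 fits, and each other lowered factor passed in 1 or 2. The 4 S1Fa-like genes, small DNA-binding proteins, all had changes above 0 with adjusted p under 0.05, and 2 of them passed both limits. Glyma.13G138200 had 105, 99.3 and 75.1 RPKM in the PBZ libraries, against 47.2, 44.7 and 40.8 RPKM in the control libraries (log2 change 1.06, SE 0.13, adjusted p 0.0165), and Glyma.03G179000 had 66.0, 52.8 and 40.5 RPKM in the PBZ libraries, against 27.8, 21 and 27.0 RPKM in the control libraries (log2 change 1.05, SE 0.19, adjusted p 0.0388). Of the 4 S1Fa-like genes, 3 were highest in control replicate 3 of 36 HAI and lowest in control replicate 2 of 12 HAI.

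Among the raised nuclear genes were 12 for ribosomal proteins. All 16 genes of this list had been picked by the study as changed in these libraries, so their common direction is not independent evidence. Of the 16, all had changes above 0, 14 had an adjusted p of at most 0.05 and 12 were raised, with 0.326% of nuclear genes, and the median was 1.14. Glyma.13G221500, for ribosomal protein L38e, had 1148, 1005 and 903 RPKM in the PBZ libraries, against 383, 434 and 524 RPKM in the control libraries (log2 change 1.19, SE 0.14, adjusted p 0.0138). Glyma.19G203300, an OB-fold protein of this list, had 595, 529 and 406 RPKM in the PBZ libraries, against 186, 216 and 208 RPKM in the control libraries (log2 change 1.31, SE 0.14, adjusted p 0.0109). The largest change was in Glyma.06G274200, of the ribosomal L5P family, with 25.3, 19.2 and 16.6 RPKM in the PBZ libraries, against 5.95, 6.85 and 5.87 RPKM in the control libraries (log2 change 1.68, SE 0.16, adjusted p 0.00652). In these 3 genes all PBZ values exceeded all control values, as in 11.4% of all genes, and replicate 1 was the highest of the PBZ libraries. Of the 16 genes, 11 were highest in control replicate 3 of 36 HAI and lowest in control replicate 2 of 12 HAI. This order matches the controls with the highest and lowest organelle share at those times. PBZ libraries were not part of it, and no size of difference was required. Over the 101 raised genes this order held for 58 (57.4%), over the 63 lowered for 2 (3.17%) and over all nuclear genes for 7.35%. Whether the organelle share and these rises are linked was not tested, since at 24 HAI the share and the treatment cannot be told apart.

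Of 5 spliceosome genes, all picked by the study, 2 were raised and 3 did not pass, with 0.326% of nuclear genes raised. Both raised genes encode small nuclear ribonucleoproteins: Glyma.10G186300 had 32.9, 30.4 and 26.2 RPKM in the PBZ libraries, against 11.9, 10.6 and 14 RPKM in the control libraries (log2 change 1.29, SE 0.13, adjusted p 0.00742), and Glyma.19G195100 had 67.1, 59.7 and 50.9 RPKM in the PBZ libraries, against 26.9, 32.3 and 28.4 RPKM in the control libraries (log2 change 1.01, SE 0.12, adjusted p 0.0127). A pair of further raised genes, chosen after their values were seen, encode TIM9, a chaperone of the mitochondrial intermembrane space. Glyma.12G063000 had 70.3, 73.7 and 63.9 RPKM in the PBZ libraries, against 28.2, 28.5 and 29.6 RPKM in the control libraries (log2 change 1.26, SE 0.07, adjusted p 0.000956), and Glyma.11G139400 had 60.5, 61.3 and 47.9 RPKM in the PBZ libraries, against 22.9, 21.6 and 25.5 RPKM in the control libraries (log2 change 1.27, SE 0.12, adjusted p 0.00629). Glyma.16G212700 and Glyma.09G164200, for the small RNA polymerase subunit NRPB12 and chosen in the same way, rose by 1.20 and 1.19 (adjusted p 0.00273 and 0.0184). Of 4 glutathione S-transferase genes, for detoxifying enzymes, 1 was raised, Glyma.08G175200 (GSTU19), with 351, 227 and 263 RPKM in the PBZ libraries, against 113, 93.1 and 128 RPKM in the control libraries (log2 change 1.32, SE 0.18, adjusted p 0.0206). The most abundant raised gene without a name, Glyma.16G082100, had 1128, 772 and 730.3 RPKM in the PBZ libraries, against 305, 240.0 and 292 RPKM in the control libraries (log2 change 1.63, SE 0.18, adjusted p 0.0109).

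The 10 largest rises were mostly genes with little or no RNA in controls. Glyma.05G244500 had 6.13, 7.70 and 12.5 RPKM in the PBZ libraries, against 0, 0 and 0 RPKM in the control libraries and Glyma.16G093500 had 13.1, 2.06 and 3.35 RPKM in the PBZ libraries, against 0, 0 and 0 RPKM in the control libraries, so both are listed at 0 in all controls and their fitted changes of 6.41 and 5.53 depend on the added 0.1. Glyma.19G083500 had 4.08, 4.07 and 6.73 RPKM in the PBZ libraries, against 0, 0.899 and 0 RPKM in the control libraries. None of these has a name. Glyma.06G183200 (log2 change 4.27, SE 0.37, adjusted p 0.00535), Glyma.04G162500 (log2 change 3.42, SE 0.44, adjusted p 0.0172), Glyma.13G132900 (log2 change 3.27, SE 0.47, adjusted p 0.025), Glyma.U008600 (log2 change 2.87, SE 0.51, adjusted p 0.0376) and Glyma.03G103300 (log2 change 2.69, SE 0.53, adjusted p 0.046) are unnamed as well. In total 6 raised genes were listed at 0 in all 3 controls.

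A pair of the large rises were in well expressed genes. Glyma.04G223400, unnamed, had 83.4, 46.2 and 44.9 RPKM in the PBZ libraries, against 5.29, 8.44 and 6.13 RPKM in the control libraries (log2 change 3.08, SE 0.27, adjusted p 0.00536). Glyma.10G282200, an oxidoreductase that binds FAD and NAD(P), had 16.6, 14.1 and 14 RPKM in the PBZ libraries, against 2.35, 1.84 and 1.96 RPKM in the control libraries (log2 change 2.81, SE 0.13, adjusted p 0.000343). The spread of the oxidoreductase gene was small, and it was also high in PBZ axes at the other times: 7.14, 6.57 and 8.54 RPKM with PBZ and 3.84, 2.30 and 5.30 RPKM in controls at 12 HAI, and 15.7, 24.4 and 20.5 RPKM with PBZ and 1.92, 1.22 and 1.83 RPKM in controls at 36 HAI, where it was raised again (log2 change 3.53, adjusted p 0.0194). Its groups did not overlap at any of the 3 times, which the rule required at 24 HAI only.

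Where the 24 HAI genes stand on the normal time course was read from controls of 36 HAI against controls of 12 HAI, which share no library with the 24 HAI comparison. Genes lowered by PBZ at 24 HAI were mostly genes that rise as germination proceeds: 55 of 63 (87.3%) were higher in controls at 36 HAI than at 12 HAI and 1 was lower, while 26.3% of all genes tested were higher. Their median log2 change over this time was 4.36, and 43 had a control mean under 1 RPKM at 12 HAI. IAA14 (Glyma.03G158700) had 45.0, 45.1 and 38.2 RPKM in the controls of 36 HAI, against 0.172, 0.437 and 0.328 RPKM in those of 12 HAI. MYB61 (Glyma.20G090700) had 10.9, 6.54 and 9.21 RPKM in the controls of 36 HAI, against 0.106, 0.126 and 0.179 RPKM in those of 12 HAI. UGT73B5 (Glyma.01G046300) had 30.6, 28.3 and 22.4 RPKM in the controls of 36 HAI, against 0.180, 0.113 and 0.0909 RPKM in those of 12 HAI. These 3 genes were thus below 1 RPKM in every control library of 12 HAI. In 54 of the 63 (85.7%) the PBZ mean at 24 HAI was above the control mean at 12 HAI, which was so for 55.1% of nuclear genes. Without control replicate 3 of 36 HAI and control replicate 2 of 12 HAI, whose organelle shares stood apart, 56 of the 63 (88.9%) were higher, with 27.2% of all genes.

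The raised genes had another distribution. Of 99 tested, 21 (21.2%) were lower in controls at 36 HAI than at 12 HAI and 8 (8.08%) were higher, with 15.7% and 26.3% of all genes. In the other 70 the test was not passed. Without the same 2 libraries the lower numbered 47 of 98 (48.0%), with 15.5% of all genes, the higher 7 and those that did not pass 44. The result for the raised genes thus depended on these 2 libraries, and that for the lowered genes did not.

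**Figure D4:**
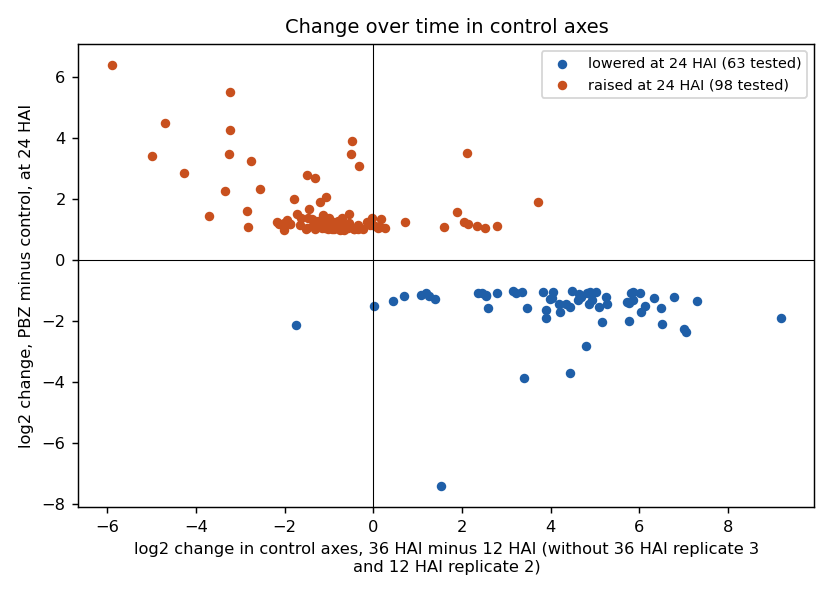
Log2 change at 24 HAI (PBZ minus control) against the log2 change in control axes (36 HAI minus 12 HAI, without the 2 libraries whose organelle shares stood apart), one point per gene. The lowered genes lie mostly right of 0, with 56 of 63 significantly higher at 36 HAI, and of 98 raised genes 47 were significantly lower and 7 higher.

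The same PBZ and control comparison at 36 HAI used other samples. Of the 63 genes lowered at 24 HAI, 48 (76.2%) had a change below 0 at 36 HAI, with 41.1% of all genes, and the median change was -0.20. A total of 2 were lowered again, both Aux/IAA genes, with 0.0397% of all genes lowered. IAA14 (Glyma.03G158700) had 16.6, 20.0 and 15.6 RPKM with PBZ and 45.0, 45.1 and 38.2 RPKM in controls (log2 change -1.30, adjusted p 0.0284). IAA19 (Glyma.15G012800) had 5.28, 6.66 and 6.65 RPKM with PBZ and 22.8, 21.4 and 16.1 RPKM in controls (log2 change -1.67, adjusted p 0.0284). Without control replicate 3 of that time, 55 of the 63 (87.3%) were below 0, with 43.9% of all genes, the median was -0.36, and both Aux/IAA genes still passed, with 0.0122% of all genes lowered.

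Of the raised genes 94 were tested at 36 HAI: 26 (27.7%) had changes above 0, with 59.8% of nuclear genes, and 68 below. A total of 5 were raised again, with 0.0885% of all genes. Besides Glyma.10G282200 these were the BR6OX2 gene Glyma.18G272300 (2.02, adjusted p 0.0284), UGT73C2 (Glyma.03G186900, 1.78, adjusted p 0.027), the dehydrogenase gene Glyma.03G099000 (2.23, adjusted p 0.0227) and the hydrolase gene Glyma.13G210000 (1.77, adjusted p 0.0284). Without control replicate 3, 54 of 90 were above 0 and only Glyma.10G282200 passed. Below 0 were 40.0% of these raised genes, with 43.0% of nuclear genes. All 8 brassinosteroid genes had changes above 0 at 36 HAI with and without that library, and 3 passed with it and 1 without. The study had called all 8 higher with PBZ at 36 HAI in these libraries, so this direction is not independent evidence. All 16 ribosomal protein genes had changes below 0 with that library and 11 of 16 without it.

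**Figure D5:**
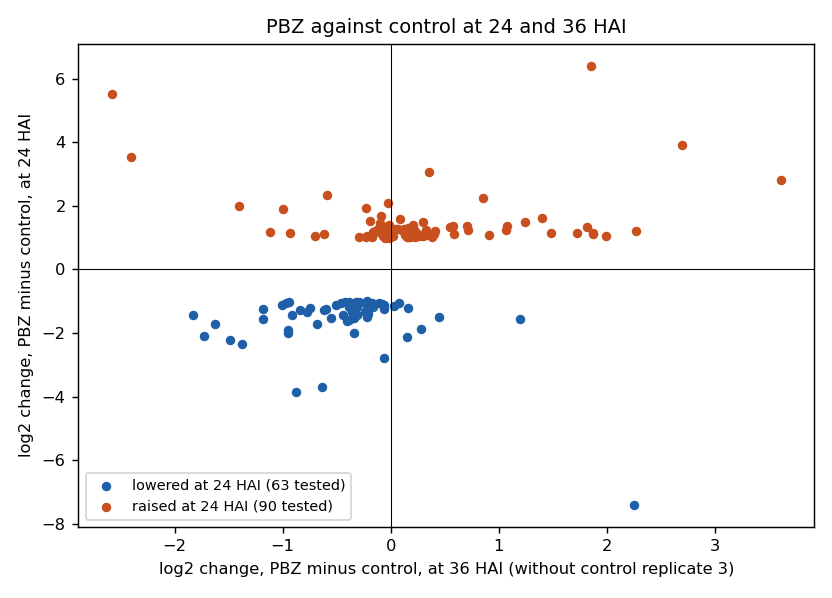
Log2 change at 24 HAI against log2 change at 36 HAI (both PBZ minus control, at 36 HAI without control replicate 3), one point per gene lowered or raised at 24 HAI. Of the lowered genes 55 of 63 lie left of 0, and 54 of 90 raised genes lie right of it. Left of 0 were 40.0% of the raised genes and 43.0% of all nuclear genes tested.

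At 12 HAI few of the lowered genes were expressed: 21 of 63 were tested, 13 had a change below 0 (52.6% of all genes), and 0 passed both limits in limma, with 0.00341% of all genes lowered. At an unadjusted p below 0.05 there were 6 in the lower direction, with 2.94% of all genes. Of the raised, 98 were tested and 78 (79.6%) had a change above 0, with 46.2% of nuclear genes. Of these 98, 1 was lowered and 0 were raised at 12 HAI, with 0.00341% and 0.00683% of all genes. At an unadjusted p below 0.05 there were 9 in the higher direction, with 2.11% of all genes. An interaction term over 12 libraries compared the effects at 24 and 36 HAI, and 3 genes passed (0.00596% higher and 0.00298% lower of all tested), none of them among the 164 nuclear genes called at 24 HAI. These were Glyma.01G229300, Glyma.10G034800 and the organelle-like Glyma.12G232200, with differences of -1.36, 1.12 and 5.10 log2 units, and 7584 genes had an unadjusted p below 0.05. The changes at 36 HAI were therefore not shown to differ from those at 24 HAI for any single lowered or raised gene. Between 24 and 12 HAI 1 gene passed, Glyma.16G093500 (0.0031% of all), and 3212 genes had an unadjusted p below 0.05.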

How the data were processed

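RNA-seq libraries (TruSeq, HiSeq 2500, single-end) were made from polyA RNA of embryonic axes. The authors removed rRNA reads, aligned the rest with Novoalign 3.06.05 to the soybean genome Wm82.a2.v1, kept uniquely mapped reads and deposited RPKM values from Cufflinks 2.1.1. No counts were used.

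Log2(RPKM + 0.1) was compared with limma 3.58.1 (empirical Bayes with trend) in R 4.3.3, in one fit per comparison, with Benjamini-Hochberg adjustment over all genes tested. Genes needed a group mean of at least 1 RPKM, and calls needed an adjusted p of 0.05 or less and a log2 change of at least 1. RPKM values come without the counts needed to estimate the counting error, so the spread between 3 replicates sets the precision. Tables were summarised with Python 3.11.15. The fits were tested on simulated data.

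Named genes were the 12 largest falls, the 8 highest control means among falls and the 10 largest rises, among nuclear genes past both limits without overlap of the groups and with a mean of at least 2 RPKM in the higher group, and members of the lists. Members outside this rule were chosen after their values were seen. The members and lists were chosen with earlier results of these data known. Gene names are those of the study's tables, since 0 identifiers matched the RefSeq gene table (Glycine_max_v4.0), so no sequence is shown. Alternatives covered the pseudocount, the filter, scaling, the replicate block, an organelle covariate, variance settings, all 18 samples and each replicate left out.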

Additional observations from a re-analysis of the deposited data

Results flagged for a closer look

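The effect of PBZ on Glyma.16G093500, which has no name, differed between 24 and 12 HAI by 11.15 log2 units (limma interaction, adjusted p 0.000421). It had 13.1, 2.06 and 3.35 RPKM in the PBZ libraries of 24 HAI, against 0, 0 and 0 RPKM in the controls, and 0, 0 and 0 RPKM in the PBZ libraries of 12 HAI, against 8.45, 3.67 and 3.55 RPKM in the controls. At 36 HAI it was listed at 0, 0 and 0 RPKM with PBZ and 0, 3.48 and 0 RPKM in controls. The size of the difference depends on the added 0.1, since the gene is listed at 0 in 1 group at each of the first 2 times. It was the only one of 32287 genes that passed in this interaction.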

How the results depend on the processing

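All 63 lowered and 101 raised nuclear genes kept their direction in every alternative that tested them except the organelle covariate, where 1 and 17 turned. The counts moved more. Lowered genes, the same over all genes and nuclear genes, numbered 41 with a pseudocount of 1, 26 without the variance trend, 13 with all 18 samples, 97 with the replicate block and 0 with the organelle level as a covariate. Raised nuclear genes numbered 58 without the trend, 7 with all 18 samples and 0 with the covariate, and raised genes over all numbered 8 with all 18 samples, 100 when organelle-like genes were left out and the rest rescaled, and 0 with the covariate. With the covariate 18 of the lowered and 50 of the raised nuclear genes had an unadjusted p below 0.05, and at 24 HAI that covariate separates PBZ from control. Leaving out 1 replicate gave 6 to 73 lowered genes, 35 to 125 raised nuclear genes and 105 to 225 raised genes over all. With the covariate the changes of Glyma.U008600, Glyma.13G132900 and Glyma.04G162500 were -2.26, -3.06 and -0.71, that of Glyma.13G210000 was -1.02 and that of Glyma.15G141400, which passed in neither fit, was 1.01. Without the 2 libraries whose organelle shares stood apart, a choice made after seeing the data, 54 raised genes had a change above 0 at 36 HAI and 47 were lower in 36 HAI than in 12 HAI controls. The share below 0 at 36 HAI was 40.0% in raised genes and 43.0% in all nuclear genes.

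The replicate numbers were not used as pairs, since the labels do not say what same-numbered samples share. Deviations of same-numbered PBZ and control libraries correlated by 0.23, 0.22 and 0.06. Each sample correlated best with its own number, a hint of pairing from the data and not the design. The replicate block, at 97 lowered and 139 raised nuclear genes, retained 54 of the 63 and 96 of the 101. The depth, known only relative to 1 library, limits genes near 1 RPKM most.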

Other observations

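Genes that the study had called at 36 HAI but not at 24 HAI were read at 24 HAI, where 0 of the tested members passed both limits in limma. Leaving out genes called at 24 HAI in the same libraries made few calls likely beforehand, so this count is not evidence about them. Of the genes called lower at 36 HAI, 67 of 121 were tested and 61 had a change below 0 at 24 HAI, with a median of -0.49, 15 of them at an unadjusted p below 0.05. Of those called higher at 36 HAI, 55 of 87 were tested and 46 had a change above 0, with a median of 0.43, and 26 were higher at an unadjusted p below 0.05. Of all genes tested 61.5% were below 0. Soybean homologs of Arabidopsis genes raised by GA, other than those the study had called at 24 HAI, numbered 43 tested of 81, all 43 picked by the study at 12 or 36 HAI, and 0 passed in limma (median change 0.11), with 9 lower and 11 higher at an unadjusted p below 0.05. Of homologs of genes lowered by GA, picked in the same way, 49 of 67 were tested and 1 was lowered (median -0.44). Both homolog lists also leave out genes called at 24 HAI, so their few calls were likely beforehand.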
